A study of Homo sapiens with 9 samples.

Results

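Secretory epithelium protects the surfaces it lines, and in the breast the gland and the milk, with proteins that are released into the lumen. The 8 genes described here encode such proteins. They were chosen by name, with earlier results of these data known. The set holds the antiproteases SLPI, PI3 and WFDC2, the antibody transporter PIGR, the iron-binding defence proteins LCN2 and LTF, and the secretory proteins PIP and AZGP1. They are 8 of the 18417 genes that had a probe set of their own on the arrays. Each was measured by 1 probe set, so that no choice between probe sets was needed.

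The cells were T47D, a breast cancer cell line with progesterone receptor, and their RNA was hybridised to Affymetrix arrays. In every group they carried the retroviral pHUSH vector and were kept under puromycin. Doxycycline switches on the vector's hairpin, which targets ELF5, a transcription factor of the ETS family. The progestin plus doxycycline group received 10 nM of the synthetic progestin ORG2058 together with 0.1 µg/ml doxycycline for 4 days, the progestin group received 10 nM ORG2058 for 4 days, and the vehicle group received ethanol. Each group held 3 arrays, and the cells of each array came from pooled wells. The labels name no duration for the vehicle cells, no array batch and no clone. No group received doxycycline without ORG2058, so the hairpin and doxycycline itself cannot be told apart here.

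SLPI and PI3, which encodes elafin, are small inhibitors of neutrophil elastase and related serine proteases, and with WFDC2 (HE4) they share the whey acidic protein fold and a gene cluster on human chromosome 20. PIGR carries dimeric IgA and pentameric IgM across the epithelial cell into secretions. LCN2 starves bacteria of iron by binding their siderophores, and LTF (lactoferrin) binds iron itself. Neutrophils store both LCN2 and LTF in their granules. PIP (prolactin-inducible protein, GCDFP-15) and AZGP1 (zinc-alpha-2-glycoprotein) are abundant in apocrine secretions and are known as androgen-regulated proteins of breast cancer cells.

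The deposited values were on a log2 scale, and no detection call came with them, so for a dim gene the arrays do not tell whether it was expressed. Over the 9 arrays the lower quartile of the named probe sets was 5.45 to 5.70 and the upper quartile 8.59 to 8.77. None of the 8 genes had a value below 0 on any array. The rank correlation of the named probe sets was 0.989 to 0.995 for the 9 pairs of arrays within a group and 0.949 to 0.993 for the 27 pairs between groups. The hairpin's target followed its labels: ELF5 averaged 10.42 ± 0.0608 with progestin plus doxycycline, 11.28 ± 0.0455 with progestin and 10.17 ± 0.109 with vehicle (log2, SD, n = 3 arrays each). The luminal markers KRT8, KRT18, KRT19, EPCAM, ESR1, PGR, GATA3 and CDH1 had group means between 8.38 and 13.17. Of these 8 markers 1 rose and 3 fell with progestin, against 13.4% and 15.6% of all probe sets. With a variance trend 3 rose and 4 fell, with array weights 2 and 4, and with quantile normalization 2 and 3. Among the 3 that fell was the progesterone receptor PGR itself (log2 change -2.28).

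Progestin raised 4 of the 8 secretory defence genes and lowered 0 of them. SLPI rose 21.7-fold, AZGP1 19.8-fold, PIP 13.5-fold and LCN2 4.13-fold. PI3, WFDC2, PIGR and LTF did not pass the test. Changes were tested with limma at a Benjamini-Hochberg adjusted p of 0.05 over 21214 probe sets, with 1 mean per group over all 9 arrays. In this comparison 29.0% of all probe sets were called, 13.4% higher and 15.6% lower. In RNA of whole cultures, fewer cells of a kind and less RNA per cell cannot be told apart. The median log2 change was 1.22 over the 8 genes, which were chosen with earlier results known, against 0.02 over all probe sets. The arrays of the 2 groups did not overlap for 4 of the 8 genes, against 42.3% of all probe sets, and for such a gene an exact permutation test gives its smallest possible p of 0.1.

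**Figure D1:**
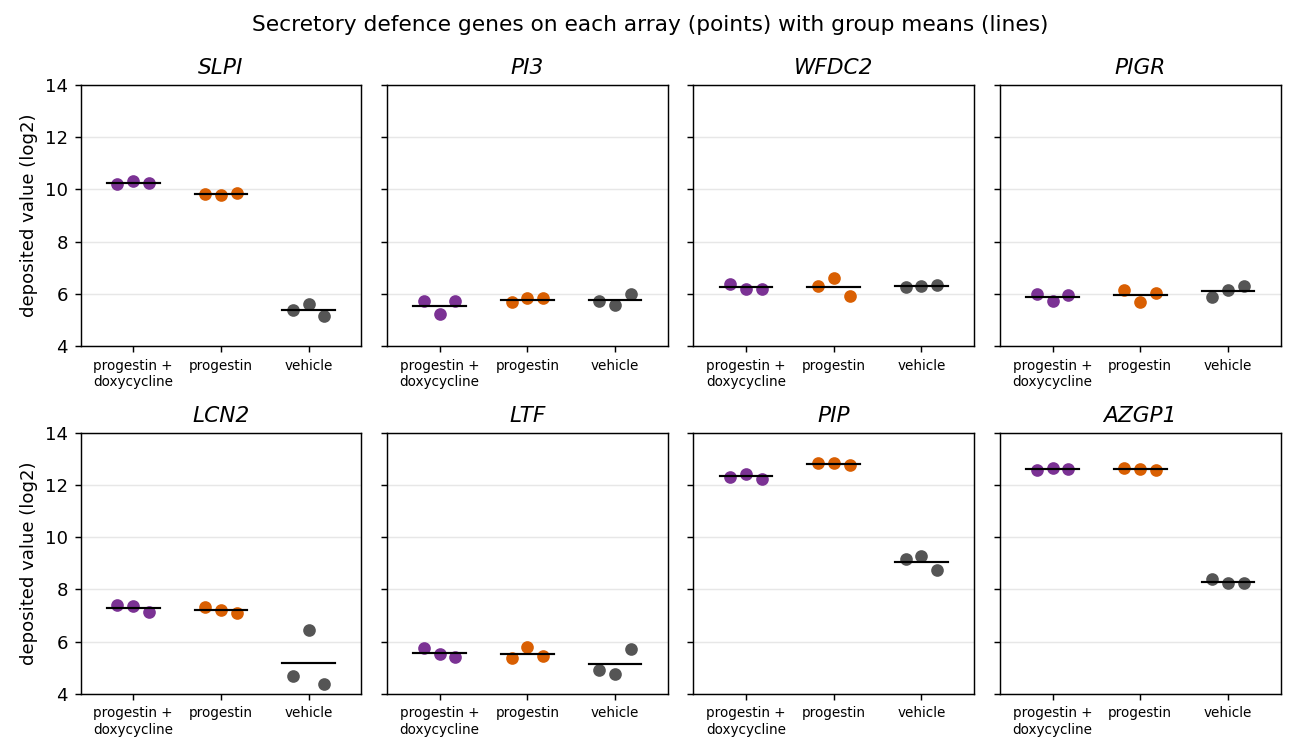
Deposited log2 value (vertical axis) of each of the 8 genes on each array (points), with the group mean as a line. From left to right in each panel stand progestin plus doxycycline, progestin and vehicle, with 3 arrays each. SLPI, LCN2, PIP and AZGP1 lie higher on all 6 progestin-treated arrays than on the 3 vehicle arrays, and the groups of the other 4 genes overlap.

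Among the antiproteases only SLPI passed the test. It was at 9.81, 9.78 and 9.88 on the progestin arrays, against 5.39, 5.61 and 5.15 on the vehicle arrays (log2). The gap between the groups was 4.17, and the vehicle arrays spread more than the progestin arrays. The log2 change was 4.44 (SE 0.11, 95% interval 4.18 to 4.70, adjusted p = 1.29e-07). With 16 added to the linear values, which damps changes that start from dim values, it was 3.99.

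PI3 was at 5.67, 5.82 and 5.84 on the progestin arrays, against 5.71, 5.56 and 6.0 on the vehicle arrays (log2). The groups overlapped, and the log2 change of 0.02 had a 95% interval of -0.35 to 0.39 (adjusted p = 0.948). WFDC2 was at 6.31, 6.59 and 5.91 with progestin, against 6.27, 6.31 and 6.34 with vehicle. Its vehicle arrays lay within 0.07 of each other, inside the range of the progestin arrays, and the log2 change of -0.04 had an interval of -0.40 to 0.32 (adjusted p = 0.892). Both intervals end far below the lower bound of 4.18 for SLPI.

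The 3 antiproteases lie close together in RefSeq gene order. Between PI3 and SLPI stand 2 protein-coding genes, the semenogelins SEMG1 and SEMG2 of seminal plasma, and 7 stand between SLPI and WFDC2. Of the 4 protein-coding neighbours on either side of SLPI, 6 of 8 were measured. By limma 0 of those 6 were called higher or lower with progestin, against 29.0% of all probe sets. The log2 changes of the 6 ran from -0.09 for MATN4 to 0.66 for SEMG2, and the SEMG2 value was -0.10 without vehicle replicate 2. In a wider list of 15 measured genes with a whey acidic protein or Kunitz inhibitor domain, 0 rose and 1 fell, with a median change of 0.10. The gene that fell was SPINT4, a Kunitz-type inhibitor, at 3.77 ± 0.161 with progestin and 4.31 ± 0.224 with vehicle (log2, SD, n = 3). Its change of -0.54 had an adjusted p of 0.0153, which became 0.16 with a variance trend and robust estimation. Both means lay below the lower quartile of every array, and the change was -0.27 with 16 added to the linear values. Without the dimmest 25% of probe sets 0 genes of this list fell, and with array weights 1 rose.

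PIGR, the antibody transporter, was at 6.13, 5.69 and 6.04 with progestin, against 5.88, 6.13 and 6.31 with vehicle (log2). The groups overlapped, and the log2 change was -0.15 (SE 0.15, 95% interval -0.51 to 0.20, adjusted p = 0.51). Its neighbour FCMR, the receptor for the Fc part of IgM, rose by 0.63 (SE 0.13, adjusted p = 0.00722). Of its 8 neighbours 1 rose and 1 fell, against 13.4% and 15.6% of all probe sets. The neighbour that fell was YOD1, a deubiquitinase (-0.37, adjusted p = 0.0105). JCHAIN, the chain that joins the antibodies PIGR carries, averaged 2.61 ± 0.594 with progestin and 2.62 ± 0.57 with vehicle (adjusted p = 0.986). Both means lay below the lower quartile of every array, so the arrays do not tell whether JCHAIN was expressed.

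The 2 iron-binding proteins differed in call. LCN2 was at 7.32, 7.22 and 7.10 on the progestin arrays, against 4.68, 6.45 and 4.37 on the vehicle arrays (log2). Vehicle replicate 2 stood apart from the other vehicle arrays and still lay 0.65 below the lowest progestin array. The log2 change was 2.05 (SE 0.46, 95% interval 0.99 to 3.11, adjusted p = 0.0112). Without vehicle replicate 2 it was 2.69, a 6.45-fold rise (adjusted p = 1.98e-05), and the vehicle arrays thus set the size of this change within a wide range.

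LTF was at 5.38, 5.77 and 5.43 with progestin, against 4.91, 4.77 and 5.70 with vehicle (log2). The log2 change was 0.40 (SE 0.24, 95% interval -0.15 to 0.95, adjusted p = 0.264). Vehicle replicate 3 was the array that made the groups overlap. Without it the change was 0.69 with an adjusted p of 0.0146, and with arrays weighted by their quality it was 0.56 with an adjusted p of 0.0182. The interval of LTF reached to just below that of LCN2, and a difference between the 2 genes was not tested.

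PIP and AZGP1 changed by the largest steps beside SLPI. PIP was at 12.84, 12.83 and 12.76 on the progestin arrays, against 9.17, 9.26 and 8.76 on the vehicle arrays (log2). The lowest progestin array stood 3.50 above the highest vehicle array. The log2 change was 3.75 (SE 0.13, 95% interval 3.45 to 4.05, adjusted p = 5.47e-07).

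AZGP1 was at 12.64, 12.60 and 12.56 on the progestin arrays, against 8.39, 8.26 and 8.23 on the vehicle arrays (log2). Both groups were tight, and its SE of 0.07 was the smallest of the 4 genes that rose. The log2 change was 4.31 (95% interval 4.15 to 4.47, adjusted p = 3.32e-08), and it was 4.24 with 16 added to the linear values. On that scale AZGP1 had the largest change of the 8 genes, while SLPI had the largest on the scale as deposited.

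Several neighbours of AZGP1 and PIP on chromosome 7 passed the test. GJC3, a gap junction connexin that stands next to AZGP1 in RefSeq order, rose by 2.96 (SE 0.10, adjusted p = 3.76e-07). TRIM4, a ubiquitin ligase one gene further, rose by 1.66 (SE 0.11, adjusted p = 1.8e-05), and ZKSCAN1, a zinc finger factor on the other side, by 0.53 (SE 0.10, adjusted p = 0.00363). In total 3 of 7 measured neighbours of AZGP1 rose and 1 fell. The one that fell, COPS6 (-0.26, adjusted p = 0.0297), lost its call with the replicate block (0.0574), with only the 2 groups (0.0693) and without vehicle replicate 1 or 2 or any progestin array. Likewise 3 of 8 neighbours of PIP rose and 0 fell. Those of PIP were TMEM139, a membrane protein (1.42, SE 0.10), KEL, the Kell blood group protein (0.80, SE 0.18), and GSTK1, a glutathione transferase (0.79, SE 0.08). Among the 8 neighbours of LCN2, 2 rose and 1 fell. Of 5 measured neighbours of LTF 1 rose, CCRL2 (1.14, adjusted p = 0.0227), and 0 fell. CCRL2 lost its call with array weights (0.0553) and without progestin replicate 1 (0.0683) or 3 (0.0627). For comparison, 13.4% of all probe sets were called higher and 15.6% lower.

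The sequences around the annotated starts are shown for 3 of the genes that rose and for PIGR, which did not pass the test, because they differ in the short motifs they hold. They are RefSeq sequences of the assembly GRCh38.p14, 300 bases from 250 before to 50 after the start, in the direction of transcription. Promoters of 6 of the 8 genes were matched by symbol: WFDC2, PIGR, LCN2, PIP and AZGP1 with 1 start each, and LTF with 3. No promoter was matched for SLPI or PI3, so the motifs of SLPI, which also rose, are not known here. Capitals mark any match, on either strand, to the progesterone receptor half-site TGTTCT, the STAT site TTCNNNGAA or the ETS-type motif AGGAAG. The PIP promoter lies at chr7:143131827-143132126 on the plus strand, that of AZGP1 at chr7:99975982-99976281 on the minus strand, that of LCN2 at chr9:128149203-128149502 on the plus strand and that of PIGR at chr1:206946417-206946716 on the minus strand.
PIP: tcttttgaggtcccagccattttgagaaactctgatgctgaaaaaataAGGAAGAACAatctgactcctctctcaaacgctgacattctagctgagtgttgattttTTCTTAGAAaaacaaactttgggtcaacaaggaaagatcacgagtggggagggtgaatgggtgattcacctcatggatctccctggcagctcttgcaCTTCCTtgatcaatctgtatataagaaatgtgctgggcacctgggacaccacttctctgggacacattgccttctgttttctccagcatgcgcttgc
AZGP1: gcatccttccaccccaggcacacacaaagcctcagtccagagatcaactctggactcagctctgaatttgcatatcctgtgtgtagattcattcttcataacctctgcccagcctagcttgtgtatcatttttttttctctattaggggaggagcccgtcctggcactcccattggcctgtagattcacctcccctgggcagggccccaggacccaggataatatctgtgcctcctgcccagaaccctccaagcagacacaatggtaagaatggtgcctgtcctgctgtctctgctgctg
LCN2: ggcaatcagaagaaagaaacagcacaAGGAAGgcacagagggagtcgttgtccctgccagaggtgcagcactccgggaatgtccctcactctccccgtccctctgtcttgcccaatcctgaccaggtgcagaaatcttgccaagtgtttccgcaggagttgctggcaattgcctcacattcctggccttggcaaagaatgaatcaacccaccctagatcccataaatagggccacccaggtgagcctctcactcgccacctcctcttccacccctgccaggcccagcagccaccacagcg
PIGR: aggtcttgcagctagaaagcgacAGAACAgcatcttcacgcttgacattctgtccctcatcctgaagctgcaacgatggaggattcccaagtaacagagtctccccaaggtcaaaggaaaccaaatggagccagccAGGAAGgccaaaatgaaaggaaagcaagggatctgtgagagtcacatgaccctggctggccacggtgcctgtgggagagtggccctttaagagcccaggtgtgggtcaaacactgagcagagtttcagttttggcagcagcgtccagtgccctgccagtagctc

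PIP held 1 half-site on the opposite strand, beginning at position -198 from the start, 1 STAT match at -144 and 2 ETS-type matches, 1 on each strand. Its half-site and 1 ETS-type match overlap in the run AGGAAGAACA. AZGP1 held 0 matches to these 3 motifs, LCN2 held 1 ETS-type match at -224, and PIGR held 1 half-site at -227 and 1 ETS-type match at -114. WFDC2 held 0. Of the 3 LTF starts, 2 held a half-site, 1 a STAT match and 2 an ETS-type match. The interferon-stimulated response element was in 0 of the promoters of the 6 genes. Among all 35116 promoters of this length, 14.8% held the half-site, 7.66% the STAT motif, 33.6% the ETS-type motif and 3.57% the interferon-stimulated response element. Of the genes with 0 matches to the 3 motifs, AZGP1 rose and WFDC2 did not pass the test. Of those with a half-site, PIP rose, and PIGR and LTF did not pass. A part of these motifs in the changes was not tested.

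Other genes of secretion and defence were looked at through 7 lists with 140 distinct measured genes. With progestin 39 of the 140 rose (27.9%) and 13 fell (9.29%), with a median log2 change of 0.13. Over all probe sets 13.4% were called higher and 15.6% lower, with a median of 0.02. The lists were written with earlier results of these data known, so the difference between these shares is a description and not a test. Of 35 other secreted antimicrobial and mucosal genes 6 rose and 3 fell, with a median of 0.10. The count that rose was 4 without vehicle replicate 2 or progestin replicate 1, 4 to 6 over all fits with 1 array left out, and 12 with array weights. S100A9 and S100A8, which pair to form the metal-binding protein calprotectin, averaged 7.55 ± 0.196 and 7.12 ± 0.177 with progestin, against 2.43 ± 0.256 and 2.54 ± 0.708 with vehicle (log2, SD, n = 3). This is a change of 5.12 for S100A9 and 4.58 for S100A8, and of 3.25 and 2.81 with 16 added to the linear values. SCGB2A2, the breast secretoglobin mammaglobin, was at 7.36 ± 0.0282 with progestin and 2.92 ± 1.24 with vehicle (change 4.45, adjusted p = 0.000309). Its change was 5.16 without vehicle replicate 2, the array that also stood apart for LCN2, and 2.86 with 16 added. TFF3, a trefoil peptide that accompanies mucins, fell by 1.86 (adjusted p = 2.55e-05).

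**Figure D2:**
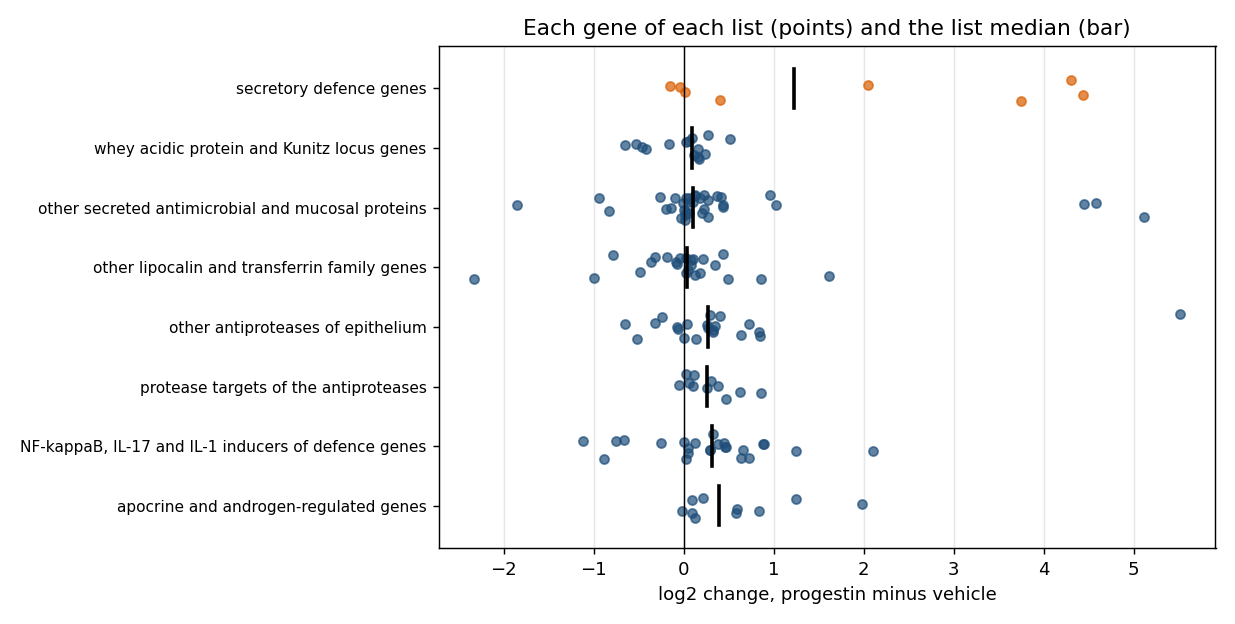
Log2 change of progestin minus vehicle (horizontal axis) for each measured gene (points) of the 8 secretory defence genes and of the 7 other lists, with the list median as a bar. The median is 1.22 for the 8 genes and lies between 0.03 and 0.40 for the other lists, in which S100A9, S100A8, SCGB2A2 and SERPINA3 are the 4 points above 4.

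Of 21 other antiproteases 6 rose and 1 fell, with a median of 0.27. Over all probe sets 13.4% were called higher and 15.6% lower, given here as a description and not a test. With array weights 11 rose, and 2 fell without vehicle replicate 3, without progestin replicate 1 and under 5 of the other settings. SERPINA3, the inhibitor of cathepsin G and chymotrypsin, had the largest change of this list, at 9.86 ± 0.0715 with progestin and 4.34 ± 0.669 with vehicle (log2 change 5.52, SE 0.28, adjusted p = 3.93e-06). SPINT1, which inhibits the membrane protease matriptase, rose by 0.85, and CST3, the cathepsin inhibitor cystatin C, by 0.84. TIMP2, an inhibitor of metalloproteases, fell by 0.65. Among 11 proteases 6 rose and 0 fell, by smaller steps. They included the cathepsins CTSL (0.86, adjusted p = 0.000707), CTSS (0.63, adjusted p = 0.011) and CTSD (0.30, adjusted p = 0.00769) and matriptase, ST14 (0.38, adjusted p = 0.00941). The count of 6 was 4 without progestin replicate 1 and 5 or 6 with any other array left out.

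Of 24 other lipocalin, transferrin and iron-handling genes 3 rose and 4 fell, with a median of 0.03. These counts are near the shares over all probe sets, 13.4% higher and 15.6% lower. The count that rose was 2 to 4 with 1 array left out and 7 with array weights. APOD, a lipocalin of breast cyst fluid, rose by 0.86, and RBP4, the retinol carrier, by 1.62. LRP2, or megalin, the endocytic receptor that takes up LCN2 and other lipocalins, fell by 2.33 (adjusted p = 7.13e-06), and the ferritin light chain FTL fell by 0.78.

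A further list held 24 receptors and factors of pathways that are known to raise these defence genes in epithelium, with inhibitors such as NFKBIA included. Of these 24 genes 13 rose and 4 fell, with a median of 0.31. Over all probe sets 13.4% were called higher and 15.6% lower, given here as a description and not a test. Whether the pathways were more active was not tested. The count of genes that rose was 9 to 12 with any 1 array left out, lowest without progestin replicate 3, and 9 with the replicate block. TLR3, a sensor of double-stranded RNA, rose by 2.10 (SE 0.10, adjusted p = 3.18e-06), and NFKBIA, the inhibitor that NF-kappaB itself induces, by 0.72. The interferon gamma receptor chain IFNGR2 fell by 1.12 and the interleukin 1 receptor IL1R1 by 0.88. Of 10 apocrine and androgen-regulated genes 5 rose and 0 fell, with a median of 0.40. When the dimmest 25% of probe sets were dropped 3 rose. UGT2B28, which glucuronidates androgens, rose by 1.99 (SE 0.26, adjusted p = 0.00061), the secretory lineage factor SPDEF by 0.60 and the tight junction protein CLDN8 by 1.24 (adjusted p = 0.00456). TFAP2B, a transcription factor, rose by 0.58 (adjusted p = 0.0144), and its adjusted p was 0.0778 after quantile normalization.

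Markers of other cells that could carry the same proteins were set beside these changes, and their part in them was not tested. The labels name only T47D cells in every group. Of 9 neutrophil markers 0 passed limma with progestin, 0 had an unadjusted p under 0.05, and with a variance trend, array weights or the other settings tried at most 2 were called. Their summed linear level, given as the log2 of its mean per marker, was 6.25 to 6.58 on the progestin arrays and 6.14 to 6.57 on the vehicle arrays. The brightest of the 9, ELANE, averaged 8.51 with progestin and 8.45 with vehicle and weighs most in this sum. Of 7 B and plasma cell markers 0 passed limma and 2 had an unadjusted p under 0.05 (at most 3 called under another setting). Of all 21214 probe sets 8284 had such a p with progestin. The levels of these 7 markers were 6.21 to 6.32 on the progestin arrays and 5.92 to 6.25 on the vehicle arrays. Of 11 markers of other leukocytes, fibroblasts and endothelium 2 rose and 1 fell, with levels of 7.14 to 7.24 with progestin and 6.98 to 7.19 with vehicle. For these and for the basal markers below, the shares over all probe sets were 13.4% higher and 15.6% lower. PECAM1 (0.34) and CDH5 (0.30) rose and COL1A1 (-0.42) fell. The count that rose was 0 without vehicle replicate 1, vehicle replicate 2 or progestin replicate 1, 1 without either other progestin array and 4 with array weights, and COL1A1 lost its call without vehicle replicate 1 (adjusted p = 0.0532). Of 5 basal markers 1 rose and 1 fell, with levels of 6.90 to 7.07 with progestin and 6.87 to 7.06 with vehicle. The rise of KRT5 (0.61) was lost with array weights, with only the 2 groups fitted and without any progestin array or replicate 1 or 3 of progestin plus doxycycline. The drop of ACTA2 (-0.30) was lost with the replicate block, the variance trend, only the 2 groups, and without any vehicle array, progestin replicate 1 or 2, or replicate 2 of progestin plus doxycycline. None of these markers had a value at or below 0, and the lowest mean in the 2 groups was that of MMP8, a neutrophil collagenase, at 2.29 with vehicle.

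Adding doxycycline to progestin moved 0 of the 8 genes past the threshold by limma. ELF5 itself fell by 0.87 on the log2 scale (SE 0.08, adjusted p = 0.029). Its drop was -0.89 to -0.83 with any 1 array left out, but in 8 of those 9 fits its adjusted p was 0.0715 to 0.149, and it passed only without vehicle replicate 3. SLPI and PIP had an unadjusted p under 0.05 and lay on opposite sides: SLPI was 1.35-fold higher and PIP 1.41-fold lower with doxycycline. Of all 21214 probe sets 2969 had such a p. AZGP1, LCN2, PI3, WFDC2, PIGR and LTF had groups that overlapped. Over all probe sets 0.0189% were called in this comparison, 0.00943% higher and 0.00943% lower, and the groups did not overlap for 21.2%, against 2 of the 8 genes. The median log2 change was -0.01 over the 8 genes and 0.03 over all probe sets.

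**Figure D3:**
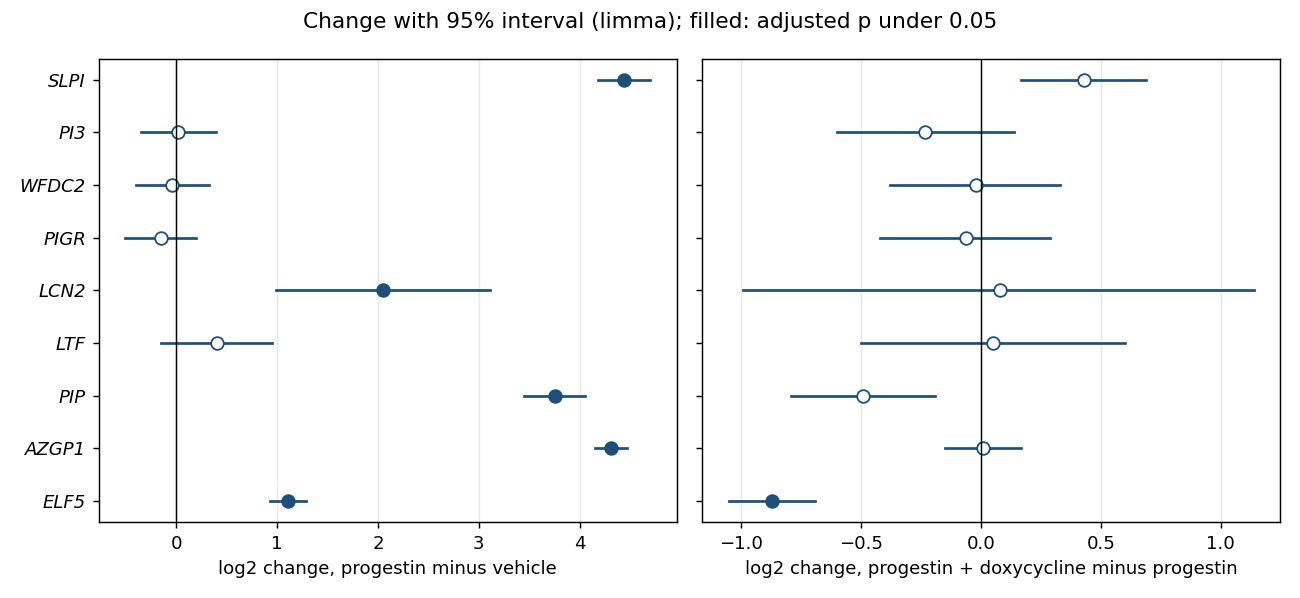
Log2 change (horizontal axis) of the 8 genes and ELF5 with its 95% interval, for progestin minus vehicle (left) and progestin plus doxycycline minus progestin (right), from the limma fit of all 9 arrays. Filled points passed the adjusted p of 0.05: 4 of the 8 genes and ELF5 on the left, and ELF5 alone on the right. The axes differ in range.

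SLPI was at 10.21, 10.33 and 10.23 with progestin plus doxycycline, against 9.81, 9.78 and 9.88 with progestin (log2). All 3 doxycycline arrays lay above the progestin arrays, with a gap of 0.33. The change was 0.43 (SE 0.11, 95% interval 0.17 to 0.69, adjusted p = 0.176 by limma). A variance trend with robust estimation gave an adjusted p of 0.023.

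PIP was at 12.30, 12.42 and 12.24 with progestin plus doxycycline, against 12.84, 12.83 and 12.76 with progestin (log2). All 3 doxycycline arrays lay below the progestin arrays, with a gap of 0.34. The change was -0.49 (SE 0.13, 95% interval -0.79 to -0.19, adjusted p = 0.174 by limma). Over the other settings tried, apart from those that leave out an array, the adjusted p lay between 0.0805 and 0.279.

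AZGP1 was at 12.57, 12.64 and 12.62 with progestin plus doxycycline, against 12.64, 12.60 and 12.56 with progestin (log2). The 2 groups interleaved, and the change of 0.01 had a 95% interval of -0.15 to 0.17, the narrowest of the 8 genes. LCN2 was at 7.39, 7.36 and 7.12 with progestin plus doxycycline, against 7.32, 7.22 and 7.10 with progestin. Its interval of -0.99 to 1.14 around 0.08 was wide because the fit shares 1 spread over the 3 groups and the vehicle arrays of LCN2 spread most. With only the 2 groups fitted the SE was 0.11 in place of 0.46, and the change remained below the threshold (adjusted p = 0.796).

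**Figure D4:**
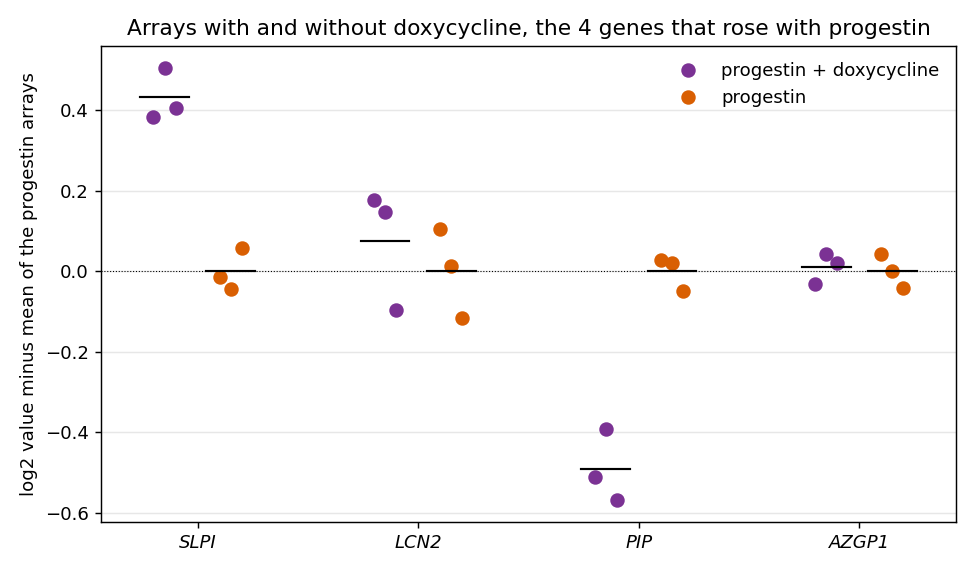
Log2 value minus the mean of the progestin arrays (vertical axis) for the 4 genes that rose with progestin, on the 3 arrays with progestin plus doxycycline (left of each pair) and the 3 with progestin (right), with group means as lines. SLPI lies above and PIP below its progestin arrays, while LCN2 and AZGP1 overlap.

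The 4 dimmer genes showed no shift that passed the test. PI3 was at 5.71, 5.21 and 5.71 with progestin plus doxycycline (change -0.23, 95% interval -0.60 to 0.14), and WFDC2 at 6.38, 6.20 and 6.17 (change -0.02, interval -0.38 to 0.33). PIGR was at 5.99, 5.72 and 5.97 (change -0.06, interval -0.42 to 0.29), and LTF at 5.77, 5.53 and 5.43 (change 0.05, interval -0.50 to 0.60). Of the 140 genes of the 7 lists, 0 passed limma with doxycycline, against 13 with an unadjusted p under 0.05. Such a p was found for 2969 of all 21214 probe sets. S100A8 averaged 7.97 with progestin plus doxycycline and 7.12 with progestin (change 0.86, adjusted p = 0.291), and TFAP2B averaged 4.97 and 5.53 in the same order (change -0.56, adjusted p = 0.16). The summed neutrophil markers were at 5.97 to 6.31 with progestin plus doxycycline and 6.25 to 6.58 with progestin, and those of B and plasma cells at 5.99 to 6.12 and 6.21 to 6.32 in the same order. By limma 0 of these 16 markers passed, 3 had an unadjusted p under 0.05, and their part in the values above was not tested.

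Progestin plus doxycycline against vehicle gave the change that was present with doxycycline added. ELF5 then averaged 10.42, below the 11.28 with progestin and above the 10.17 with vehicle (log2). This comparison shares its vehicle arrays with the progestin comparison, so the values stand side by side without a test between them. The same 4 genes were called higher and 0 lower, against 28.1% of all probe sets called, 15.6% higher and 12.5% lower. The arrays did not overlap for 4 of the 8 genes and for 41.8% of all probe sets. SLPI differed by 4.87 (SE 0.11), AZGP1 by 4.32 (SE 0.07), PIP by 3.26 (SE 0.13) and LCN2 by 2.12 (SE 0.46), with adjusted p values of 7.33e-08, 2.91e-08, 8.81e-07 and 0.00925. These are 29.3-fold, 19.9-fold, 9.58-fold and 4.35-fold. As a share of the log2 change with progestin alone they amount to 110% for SLPI, 100% for AZGP1, 86.9% for PIP and 104% for LCN2. The same share was 21.8% for ELF5 itself. PI3, WFDC2, PIGR and LTF differed from vehicle by -0.21, -0.06, -0.22 and 0.45 and did not pass the test, and LTF had an adjusted p of 0.0113 without vehicle replicate 3 and 0.0046 with array weights.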

How the data were processed

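RNA from 9 cultures of T47D cells was profiled on arrays, and the authors deposited 1 log2 value per probe set and array. Per the submitters' processing notes the tools were PLIER, limma, Expression Console and Affymetrix Power Tools; their roles, versions, the normalization and the genome build are not given in the sources used here. That the deposited values are log2 was read from their range. The platform annotation gave 1 symbol to 19460 of 33297 probe sets and several to 1754, and these 21214 were tested. Gene identifiers of 19429 were found in RefSeq (GRCh38.p14), which changed 0 symbols. Groups were compared in R 4.3.3 by limma 3.58.1, fitting a mean for each, with eBayes and Benjamini-Hochberg adjustment, and the fit was tested on simulated data. Alternatives were quantile normalization, 16 added to the linear values, a filter on dim probe sets, other variance models, a replicate block, fewer groups and each array left out. SE and intervals come from this fit. Precision is limited by how many arrays there are; p-values reflect their spread, and the design text calls them independent experiments. Named are the 8 genes, ELF5, PGR and, from each list, up to 4 called genes with the smallest p; neighbours, marker genes given with values, JCHAIN, MATN4 and SEMG2 were chosen after their values were seen. The genes and lists were chosen with earlier results of these data known. Some listed genes were not analysed here. No pairing by replicate number was seen, which does not show that there was none. Deviations from group means correlated between -0.146 and 0.196 for same-numbered arrays and between -0.182 and 0.17 for other-numbered arrays.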

Additional observations from a re-analysis of the deposited data

How the results depend on the processing

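SLPI, AZGP1, PIP and LCN2 stayed called higher, and 0 genes were called lower, under all 16 alternatives, both with progestin and with progestin plus doxycycline against vehicle. Of 127 values of single genes under an alternative, 125 kept their call in each comparison, and the other 2 were the LTF calls given above. For doxycycline added to progestin 126 of 127 kept it, and 1 gene (SLPI) was called higher with a variance trend and robust estimation, against 0 otherwise. The count over all probe sets with progestin was 6161, and 9502 with array weights. With doxycycline added it was 4, against 15 with 16 added to the linear values, 158 when the dimmest 25% were dropped, 530 under the variance trend, 8 under array weights, 0 with the replicate block, 0 when only the 2 groups were fitted and 0 to 2 with 1 array left out. The drop of ELF5 with doxycycline was -0.87 with the replicate block (adjusted p = 0.203) and -0.87 with only the 2 groups (0.175), past the threshold in neither, and -0.89 to -0.83 with 1 array left out, past it only without vehicle replicate 3. Against vehicle ELF5 with doxycycline was 0.24 higher (adjusted p = 0.0502), and passed at 0.24 with quantile normalization (0.0109), 16 added (0.0475), the dimmest 25% left out (0.0322) or a variance trend (0.00319), and at 0.17 with array weights (0.0267). The cause of these shifts was not tested. The replicate block changed no call of the 8 genes. A mean over probe sets was not run, since each gene has 1. LTF was among the dimmest 25% and had no value there.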

Other observations

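The genes whose profile over the 9 arrays was most like that of AZGP1, the gene with the largest change of the 8 on the scale with 16 added, were SGK1, ADAMTS8, MX1, CYP27A1 and RSAD2. Likeness was the root mean square distance between log2 profiles, each centred on its own mean, and it was 0.0709 for SGK1, a kinase induced by steroid hormones, 0.115 for the secreted metalloprotease ADAMTS8, 0.128 for the antiviral protein MX1, 0.162 for the sterol hydroxylase CYP27A1 and 0.165 for the antiviral protein RSAD2. Their log2 changes with progestin were 4.39, 4.48, 4.39, 4.06 and 3.99, and with doxycycline added they were -0.03, -0.12, 0.14, 0.12 and 0.22. Because the genes were chosen by this distance over the same arrays, changes near those of AZGP1 follow from the choice.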
